A study of Mus musculus with 17 samples.

Results

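The genes that govern entry into S phase from the G1 phase of the cell cycle were followed through 17 mouse mammary tumours. They are 10 genes, listed by name: the kinases Cdk4 and Cdk6, their partners Ccnd1, Ccnd2 and Ccnd3, and the kinase inhibitors Cdkn1a, Cdkn1b, Cdkn2a, Cdkn2b and Cdkn2c. All 10 were measured, among 12393 genes in all, and each was read from its brightest probe set by mean over the 17 arrays. The tumours arose in FVB mice that carry MMTV-Myc T58A, and the labels call every one of them low expressing. The MMTV promoter is active in mammary epithelium, and T58A replaces a threonine whose phosphorylation marks Myc for degradation. RNA from each tumour was hybridised to 1 Affymetrix array. The histology label gave 6 EMT tumours (the usual short form of epithelial to mesenchymal transition), 9 Squamous tumours, 1 Papillary and 1 Microacinar tumour. EMT tumours were compared with Squamous tumours, and the single Papillary and Microacinar tumours were set beside them without a test. The series holds no tumour without the transgene and no normal gland, so the comparison is between histologies of 1 model.

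Cyclins D1, D2 and D3 bind CDK4 or CDK6, and the active complexes phosphorylate the retinoblastoma protein and its relatives, which releases E2F factors to transcribe the genes of DNA replication. INK4 proteins (from Cdkn2a, Cdkn2b and Cdkn2c) bind the kinases and block the cyclin from joining them, whereas the CIP/KIP proteins p21 (Cdkn1a) and p27 (Cdkn1b) act on assembled cyclin complexes, above all those of CDK2. Myc is known to activate Cdk4 and Ccnd2 and to repress Cdkn1a and Cdkn2b, and in the mouse mammary gland cyclin D1 is needed for lobuloalveolar growth in pregnancy.

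Because the transgene is a transcription factor that binds the E-box CACGTG, the promoters of both kinases are shown with each E-box in capitals. RefSeq (GRCm38.p6) gave a window from 250 bases before to 50 bases after a start site for 8 of the 10 genes, 12 windows in all. The Cdk4 window is chr10:127063285-127063584 and the Cdk6 window chr5:3343643-3343942, both on the plus strand and written 5′ to 3′. The Cdk6 window lies inside the annotated gene (chr5:3341004-3531008), so its start site is not the outermost one.
Cdk4: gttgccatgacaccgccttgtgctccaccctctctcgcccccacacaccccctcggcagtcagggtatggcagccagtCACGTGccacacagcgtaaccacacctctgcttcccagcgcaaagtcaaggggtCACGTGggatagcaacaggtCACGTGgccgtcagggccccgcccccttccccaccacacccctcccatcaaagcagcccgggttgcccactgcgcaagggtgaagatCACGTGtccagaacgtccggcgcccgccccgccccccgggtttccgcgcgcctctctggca
Cdk6: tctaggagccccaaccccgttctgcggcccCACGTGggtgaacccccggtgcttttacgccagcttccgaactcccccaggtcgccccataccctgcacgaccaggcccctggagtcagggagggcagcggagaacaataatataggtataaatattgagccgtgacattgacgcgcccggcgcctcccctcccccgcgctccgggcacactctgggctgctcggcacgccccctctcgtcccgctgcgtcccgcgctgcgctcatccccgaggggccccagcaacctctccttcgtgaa
CACGTG reads the same on both strands. The Cdk4 window held 4 copies and the Cdk6 window 1, and the only other copy was in 1 of the 2 Cdkn2c windows. At least 1 copy was found in 7.15% of the 32817 mouse windows of this length, and 4 or more copies in 8 of them (0.0244%). The E2F motifs TTTGGCGC and TTTCCCGC, searched on both strands, were found in 1 of the 12 windows, that of the upstream Cdkn2a start, and in 1.56% of all windows. These matches describe the letters of the windows and are not measurements of binding.

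Sample titles came in 2 formats, and they divided the arrays. Over all probe sets the 3 arrays with TM titles (EMT 5, EMT 6 and Squamous 9) had an SD of 2.46 to 2.51, and the 14 numbered arrays (4 EMT, 8 Squamous, Papillary and Microacinar) one of 2.25 to 2.29, so title format was a term in the model and each difference is also given for the numbered arrays alone. The mean of 10 epithelial cell markers was 7.51, 6.19 and 7.38 in EMT 4, EMT 5 and EMT 6, and 10.45 to 11.54 in EMT 1 to EMT 3, against 10.24 to 11.49 in Squamous tumours. The labels name no animals. Squamous 7 and Squamous 8 share a number in their titles, as do Squamous 5 and the Microacinar tumour, so p-values measure only the spread between these tumours, which may be technical in part.

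Between EMT and Squamous tumours Cdk4 stood out among the 10 genes. It was the only one whose EMT values all lay above the Squamous values, and in the fit over 12393 genes it had the smallest p of any gene. Its adjusted p of 0.0982 (limma, Benjamini-Hochberg over all genes) did not pass 0.05, and neither did that of any other gene, so no member is called higher or lower. Of the 10 genes 4 reached an unadjusted p under 0.05, all with higher EMT values: Cdk4, Cdk6, Ccnd1 and Cdkn2c.

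The backgrounds to these counts come from the same fit. Genes called at an adjusted p under 0.05 made up 0.0% of all genes, those at an unadjusted p under 0.05 made up 8.08% in the higher direction (1001 genes) and 6.27% in the lower (777 genes), and exact permutation tests, over all splits or within title formats, also called 0 genes. Leaving out EMT 1 gave 14 called genes, none of them a member. Without overlap, EMT values lay above Squamous values for 0.153% of genes (19) and below them for 0.0968% (12). That total of 31 became 88 without EMT 1, 60 without EMT 2, 79 without EMT 3, 49 without EMT 4 or EMT 5 and 74 without Squamous 9. The median fitted difference was 0.36 over the members and 0.0064 over all genes on the log2 scale, and 9 of 10 members had a positive difference, against 51.8% of all genes.

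**Figure D1:**
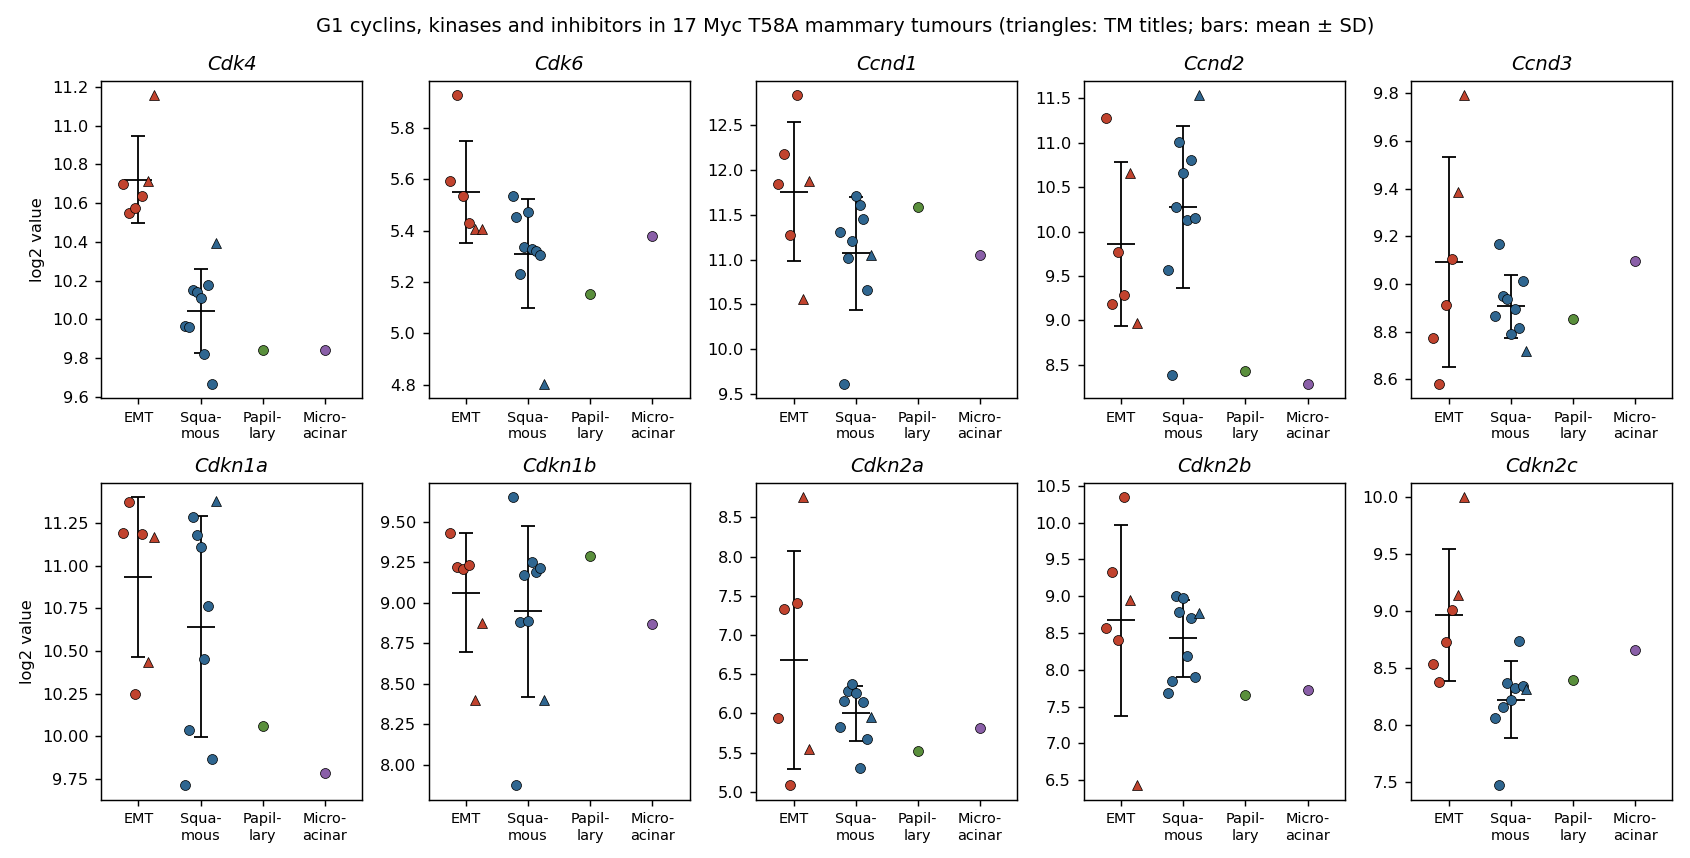
Log2 value of each of the 10 genes (y axis, 1 panel per gene, own scale) in EMT, Squamous, Papillary and Microacinar tumours, with circles for numbered arrays, triangles for TM arrays, and bars for the mean and SD of EMT and Squamous tumours. The Cdk4 values of the 6 EMT tumours all lie above those of the 9 Squamous tumours, and in the other 9 panels the groups overlap.

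CDK4 is the kinase partner of the D cyclins in most epithelia. The gene lies at chr10:127063535-127067288 (GRCm38.p6) and was read from probe set 1422441_x_at. Its log2 values in EMT 1 to EMT 6 were 10.70, 10.55, 10.58, 10.64, 10.71 and 11.16. In Squamous 1 to Squamous 9 they were 9.96, 9.96, 10.15, 10.14, 10.11, 9.82, 10.18, 9.67 and 10.40, and both single tumours stood at 9.84. Every EMT tumour was above every Squamous tumour, and EMT 6 was set apart at the top of its group. The means were 10.72 ± 0.22 in EMT tumours (SD, n = 6) and 10.04 ± 0.22 in Squamous tumours (SD, n = 9). In the limma fit the difference was 0.60 (SE 0.095, 95% interval 0.40 to 0.80), a fold of 1.52 with an interval of 1.32 to 1.75. The unadjusted p was 2.10e-05, and the adjusted p of 0.0982 ranged from 0.0505 to 0.360 over the alternatives tried. The numbered arrays alone gave a difference of 0.62. By exact two-sided permutation over all splits of the tumours the p was 0.0001998, the smallest this design can give, and its adjusted value over all genes was 0.118.

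The suffix of probe set 1422441_x_at marks probes that can also match other transcripts, so the other Cdk4 probe sets bear on the reading. There are 3 in all, and over the 17 tumours their pairwise Pearson r was 0.878 to 0.984. In a fit over all 20380 probe sets with one gene, the EMT minus Squamous difference was 0.63 for 1422439_a_at, 0.67 for 1422440_at and 0.60 for 1422441_x_at, each with an adjusted p of 0.0792 (limma). EMT and Squamous values did not overlap for 1422439_a_at either. For 1422440_at they overlapped by 1 tumour, since the lowest EMT tumour stood at 9.93 and Squamous 9 at 9.96.

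Epithelial markers divided the EMT tumours, as given above. In EMT 1, EMT 2 and EMT 3, where the mean of the epithelial markers was in or near the Squamous range, Cdk4 was above every Squamous tumour. In a bulk tumour fewer cells of a type and less RNA per cell cannot be told apart.

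Cdk6 encodes the second kinase of the D cyclins. It was dim on these arrays: its mean of 5.39 over all tumours was close to the lower quartile of the arrays, which lay between 5.24 and 5.41. EMT tumours had values of 5.41 to 5.93 with a median of 5.48, against 4.80 to 5.54 with a median of 5.33 in Squamous tumours. EMT 1 and EMT 2 alone exceeded every Squamous tumour, and Squamous 9 was lowest of all. The value of 5.41 was equal to the last deposited decimal in EMT 5 and EMT 6. The difference was 0.32 (SE 0.087, interval 0.13 to 0.50, unadjusted p = 0.00257, limma adjusted p = 0.190), and 0.25 on the numbered arrays alone. The Papillary tumour, at 5.15, and the Microacinar tumour, at 5.38, were within the Squamous range.

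**Figure D2:**
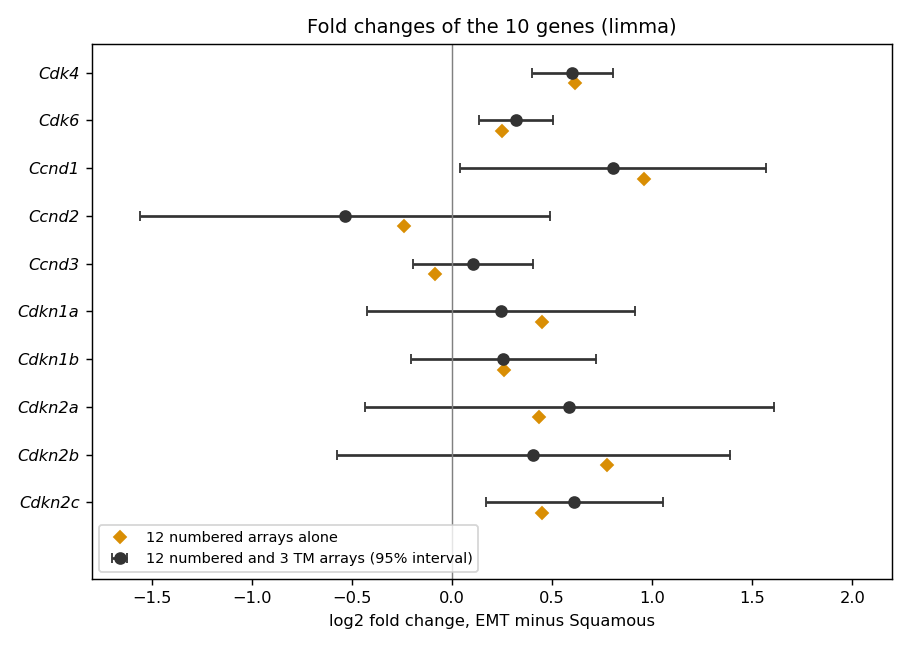
EMT minus Squamous difference on the log2 scale (x axis) for each gene, from limma with title format as a term (black, bars are 95% intervals, 6 EMT and 9 Squamous tumours) and from the numbered arrays alone (orange). The intervals of Cdk4, Cdk6, Ccnd1 and Cdkn2c do not reach 0, and Ccnd3 changes sign between the 2 fits.

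Of the D cyclins, cyclin D1 had the largest positive difference of any member, but with a wide spread. Ccnd1 values ran from 10.56 to 12.84 in EMT tumours with a median of 11.86, against 9.61 to 11.71 in Squamous tumours with a median of 11.21. EMT 1, EMT 2, EMT 4 and EMT 6 lay above every Squamous tumour, EMT 5 lay below all of them but Squamous 2, and Squamous 2 was far below the other Squamous tumours. The means were 11.76 ± 0.78 in EMT tumours (SD, n = 6) and 11.07 ± 0.63 in Squamous tumours (SD, n = 9). The difference was 0.80 (SE 0.36, interval 0.04 to 1.57), with an unadjusted p of 0.0413 and a limma adjusted p of 0.332, and it was 0.96 on the numbered arrays alone. The Papillary tumour, at 11.58, and the Microacinar tumour, at 11.05, were inside the Squamous range. The 3 Ccnd1 probe sets had pairwise r of 0.931 to 0.987 over the 17 tumours and gave differences of 1.06, 0.80 and 0.81.

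Ccnd2, the D cyclin that Myc is known to activate, was the one member with a negative difference. Its values were 8.97 to 11.28 in EMT tumours with a median of 9.53, against 8.38 to 11.53 in Squamous tumours with a median of 10.27. The groups overlapped throughout. EMT 1 was highest in its group, and without it the difference of -0.54 (SE 0.48, interval -1.56 to 0.49, limma adjusted p = 0.629) became -0.94, while the numbered arrays alone gave -0.24. The Papillary and Microacinar tumours, at 8.43 and 8.29, stood with Squamous 2 at the bottom of the series. Ccnd2 had 7 probe sets, whose pairwise r was 0.626 to 0.995 and whose differences ran from -0.60 to -0.13. The 2 lowest of those r values, 0.626 and 0.740, involve 1416124_at, a dim probe set with a mean of 4.99.

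Ccnd3, the third D cyclin, varied more among EMT tumours than among Squamous tumours. EMT tumours ran from 8.58 to 9.79 with an SD of 0.44, against 8.72 to 9.17 with an SD of 0.13 in Squamous tumours. EMT 5 and EMT 6, both on TM arrays, exceeded every Squamous tumour, and EMT 2 was below them all. The difference was 0.10 (SE 0.14, interval -0.19 to 0.40, limma adjusted p = 0.762), and on the numbered arrays alone its sign turned, to -0.09.

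Among the CIP/KIP genes, Cdkn1a, whose product p21 is the classic p53-induced inhibitor, varied as much within a histology as between them. Values were 10.25 to 11.37 in EMT tumours with a median of 11.18, against 9.71 to 11.38 in Squamous tumours with a median of 10.76. Below every EMT tumour lay 3 Squamous tumours: Squamous 1, Squamous 2 and Squamous 8 stood at 9.71, 10.04 and 9.87, beside the Papillary tumour at 10.06 and the Microacinar tumour at 9.78. The difference was 0.24 (SE 0.31, interval -0.43 to 0.91, limma adjusted p = 0.753), 0.45 on the numbered arrays alone, 0.11 without EMT 2 and 0.04 with array weights. Its 2 probe sets had r = 0.843 and gave 0.38 and 0.24.

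Cdkn1b encodes p27, which holds CDK2 inactive in quiescent cells. Its values were 8.40 to 9.43 in EMT tumours with a median of 9.22, and 7.87 to 9.65 in Squamous tumours with a median of 9.17. The EMT range lay wholly inside the Squamous range, whose ends were Squamous 2 and Squamous 1. EMT 5 and Squamous 9, both on TM arrays, had the same value of 8.40 to the last deposited decimal. The difference was 0.25 (SE 0.21, interval -0.21 to 0.72, limma adjusted p = 0.606), and 0.26 on the numbered arrays alone. The 2 Cdkn1b probe sets were the pair with the weakest relation, r = 0.493 over the 17 tumours and 0.141 over the 14 numbered arrays. The probe set not used, 1419497_at, was dim, with a mean of 4.22.

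Of the INK4 genes, Cdkn2a and Cdkn2b had wider ranges in EMT tumours than any other member. Cdkn2a encodes the inhibitor INK4A and, from another first exon, ARF, which holds MDM2 away from p53, and which of them the probe set reads was not tested. Its values in EMT 1 to EMT 6 were 5.94, 7.33, 5.08, 7.40, 8.76 and 5.55, against 5.31 to 6.37 with a median of 6.15 in Squamous tumours. EMT 2, EMT 4 and EMT 5 were above every Squamous tumour and EMT 3 was below them all. The probe set was dim, with a mean of 6.20 over all tumours, at percentile 29.1 of all genes. The EMT 3 value and the lowest Squamous value lay below the lower quartiles of the numbered arrays, 5.33 to 5.41. The SD was 1.39 in EMT tumours, higher than for 94.2% of genes, and 0.35 in Squamous tumours. The difference was 0.58 (SE 0.48, interval -0.44 to 1.61, limma adjusted p = 0.590), 0.43 on the numbered arrays alone and 0.01 with array weights.

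Cdkn2b, the neighbour of Cdkn2a and a target of TGF-beta signalling, had values of 8.56, 9.33, 8.40, 10.35, 8.95 and 6.43 in EMT 1 to EMT 6. In Squamous tumours it ran from 7.68 to 9.01 with a median of 8.70. EMT 4 and EMT 2 were above every Squamous tumour and EMT 6 was far below them. The difference was 0.40 (SE 0.46, interval -0.58 to 1.39, limma adjusted p = 0.716) and 0.77 on the numbered arrays alone. It was 0.04 without EMT 4, and with array weights its sign turned, to -0.0070.

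Cdkn2c, the INK4 gene that E2F factors are known to activate, was the inhibitor with the smallest p. Values were 8.37 to 9.997 in EMT tumours with a median of 8.87, against 7.47 to 8.73 in Squamous tumours with a median of 8.31. EMT 4, EMT 5 and EMT 6 lay above every Squamous tumour, and without Squamous 7 the groups did not overlap. The means were 8.96 ± 0.58 in EMT tumours (SD, n = 6) and 8.22 ± 0.34 in Squamous tumours (SD, n = 9). The difference was 0.61 (SE 0.20, interval 0.17 to 1.05), with an unadjusted p of 0.0101 and a limma adjusted p of 0.238, and it was 0.45 on the numbered arrays alone. The Papillary and Microacinar tumours, at 8.40 and 8.66, were inside the Squamous range. One measure of RNA integrity moved with this gene: the 3′ minus 5′ difference of the beta-actin control probe sets was 0.59 ± 0.13 in EMT tumours (SD, n = 6) and 0.78 ± 0.11 in Squamous tumours (SD, n = 9), and its Pearson r with Cdkn2c was -0.712 over 17 tumours (permutation p = 0.00087, adjusted over 200 relations 0.0290; Spearman rho -0.586). On the numbered arrays that r was -0.572, with an adjusted p of 0.171. Cell type markers moved with Cdkn2c too. EMT 4, EMT 5 and EMT 6, its 3 highest tumours, were those with the lowest epithelial cell marker means. Over 17 tumours Cdkn2c had r = -0.741 with the epithelial cell mean (permutation p = 0.00128, adjusted 0.0320), and rho was -0.400. It had r = -0.511 without EMT 5 and EMT 6, and -0.523 on the numbered arrays. Its r with the secretory epithelium mean was -0.726 over 17 tumours (permutation p = 0.00111, adjusted 0.0317; rho -0.461), -0.326 without EMT 6 and EMT 5, and -0.352 on the numbered arrays. With the mean of 9 macrophage markers, which was 10.83 ± 1.22 in EMT tumours and 10.27 ± 0.85 in Squamous tumours, r was 0.678 (permutation p = 0.00209, adjusted 0.0464; rho 0.527), 0.430 without EMT 5 and EMT 6, and 0.453 on the numbered arrays. The part of RNA integrity and of these cell types in the Cdkn2c difference was not tested.

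**Figure D3:**
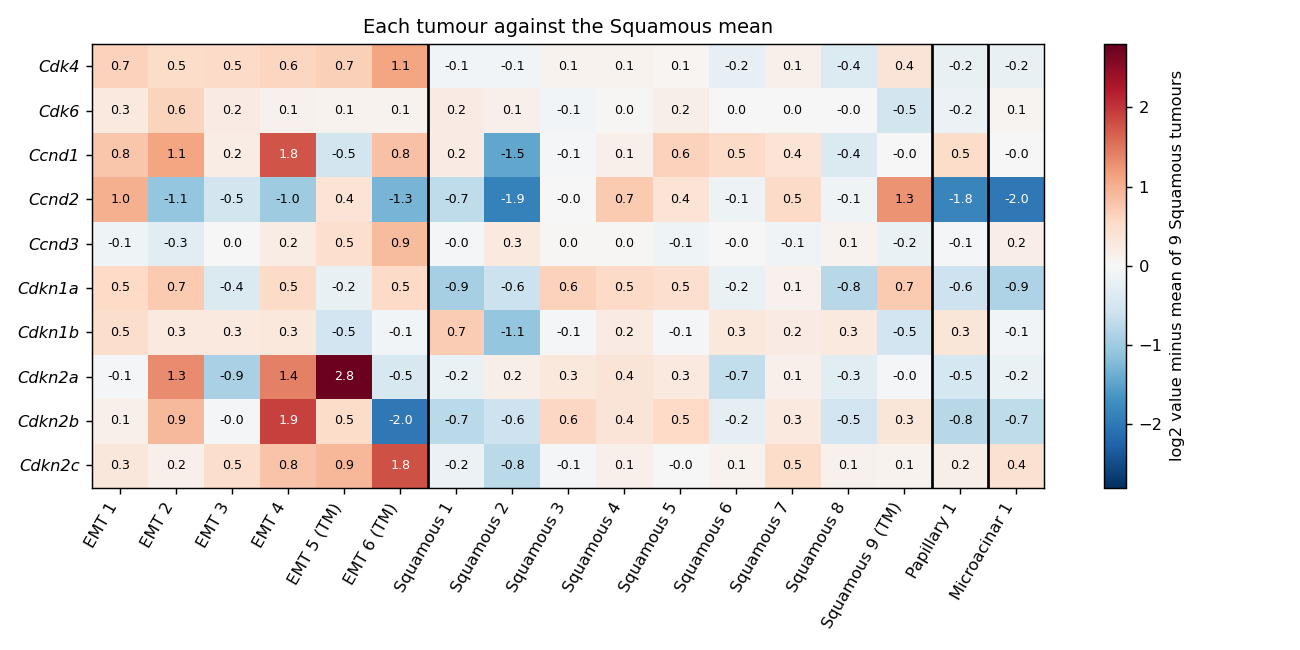
Log2 value of each gene in each of the 17 tumours minus the mean of the 9 Squamous tumours (colour and printed value, EMT tumours on the left, then Squamous, Papillary and Microacinar). Cdk4 is above 0 in all 6 EMT tumours, and the Cdkn2a and Cdkn2b rows take both signs among EMT tumours.

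The EMT tumours differed among themselves in which of the 10 genes were high. EMT 4 combined the highest Ccnd1 and Cdkn2b values of the series, EMT 5 the highest Cdkn2a value, and EMT 6 the highest Cdk4, Ccnd3 and Cdkn2c values with the lowest Cdkn2b value. EMT 5 and EMT 6 are both on TM arrays, whose values had the wider SD over all probe sets. Their extremes cannot be told apart from an effect of title format. Squamous 2 had the lowest Ccnd1, Cdkn1b and Cdkn2c values of the series. The SD among EMT tumours exceeded that among Squamous tumours for 7 of the 10 genes, and for 77.2% of all genes. The median SD over all genes was 0.37 in EMT tumours and 0.25 in Squamous tumours, so the wider spread is not particular to the members. These SDs take no account of title format, and 2 of the 6 EMT tumours but 1 of the 9 Squamous tumours are on TM arrays. The part of title format in the wider spread was not tested.

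Relations between the members were computed for all 45 pairs. Over the 17 tumours 1 pair passed an adjusted p of 0.05, Cdk4 with Cdkn2c, with Pearson r = 0.715 (permutation p = 0.00108, adjusted 0.0486) and Spearman rho = 0.608 (adjusted 0.170). It rests on EMT 5 and EMT 6: without them r was 0.433, and on the numbered arrays it was 0.452 (adjusted p = 0.241).

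The 2 pairs that passed on the 14 numbered arrays were both with Cdkn2b. Cdkn1a and Cdkn2b had r = 0.842 (permutation p = 7.0e-05, adjusted 0.00315), rho = 0.877, and r = 0.799 without the 2 tumours farthest from the median. Over all 17 tumours the pair did not pass, with r = 0.502 (permutation p = 0.0378, adjusted 0.240) and rho = 0.679 (adjusted 0.0832). Values within each histology are given for this pair and some relations below as a description without a test, since the relations were picked for their strength over arrays that include the same tumours. Among the 6 EMT tumours r was 0.0644 and rho 0.486. Among the 9 Squamous tumours r was 0.963 and rho 0.867. The difference between these correlations was not tested.

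Cdkn2a and Cdkn2b, which lie side by side on chromosome 4 at 89274473-89294619 and 89306289-89311032, had r = 0.788 on the numbered arrays (permutation p = 0.00065, adjusted 0.0146) and rho = 0.758. That r was 0.497 without EMT 4 and EMT 2. Over all 17 tumours r was 0.610 (adjusted p = 0.118) and rho 0.784 (adjusted 0.0180).

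Myc itself was 10.37 ± 1.15 in EMT tumours (SD, n = 6) and 11.09 ± 1.01 in Squamous tumours (SD, n = 9), a difference of -0.51 (SE 0.53, limma adjusted p = 0.685). Whether transgene RNA contributes to its value was not tested. None of the 10 members had a relation with Myc that passed the adjusted threshold, and their r over the 17 tumours lay between -0.448 and 0.139. For the genes named above as activated by Myc, r was -0.355 for Cdk4 (rho -0.387) and 0.0986 for Ccnd2. For those named as repressed it was -0.439 for Cdkn1a and -0.364 for Cdkn2b.

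The members were then set against the means of 18 gene lists and 2 RNA integrity measures, 200 relations in all. Over the 17 tumours 9 passed an adjusted p of 0.05 and 4 of those also passed on the numbered arrays. The permutations shuffled tumours without regard to histology, so a difference between histologies can enter these p-values.

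Cdk4 was highest where the genes of milk secretion were lowest. Its r with the mean of 8 secretory epithelium genes, among them caseins and Wap, was -0.887 (permutation p = 2.0e-05, adjusted 0.00200) and rho was -0.877. Without EMT 5 and EMT 6 r was -0.796, and on the numbered arrays it was -0.788 (adjusted p = 0.0249). Within the 6 EMT tumours r was -0.735 but 0.318 without EMT 6 and EMT 3. Within the 9 Squamous tumours r was -0.793, rho was -0.867, and r was -0.718 without Squamous 9 and Squamous 4. The secretory mean was 6.14 to 12.40 in EMT tumours and 10.92 to 13.69 in Squamous tumours. In EMT 1 and EMT 3 it was 11.61 and 12.40, inside the Squamous range, and Cdk4 in both was above every Squamous tumour. The beta-actin 3′ minus 5′ difference, given above for Cdkn2c, was also lower in EMT tumours (0.44 to 0.82) than in Squamous tumours (0.62 to 0.96), with overlap. It was lowest in EMT 6, the tumour with the highest Cdk4 value. Its relation with Cdk4 was not among the 9 that passed over the 17 tumours. The part of the secretory cells and of RNA integrity in the Cdk4 difference was not tested.

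The mean of 18 mitotic genes also went with Cdk4, with r = 0.745 (permutation p = 0.00037, adjusted 0.0148) and rho = 0.647 (adjusted 0.104) over 17 tumours. On the numbered arrays r was 0.701 (adjusted p = 0.0682). Within the histologies r was 0.622 in EMT tumours (0.306 without EMT 6 and EMT 5) and 0.465 in Squamous tumours (-0.0961 without Squamous 2 and Squamous 8).

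**Figure D4:**
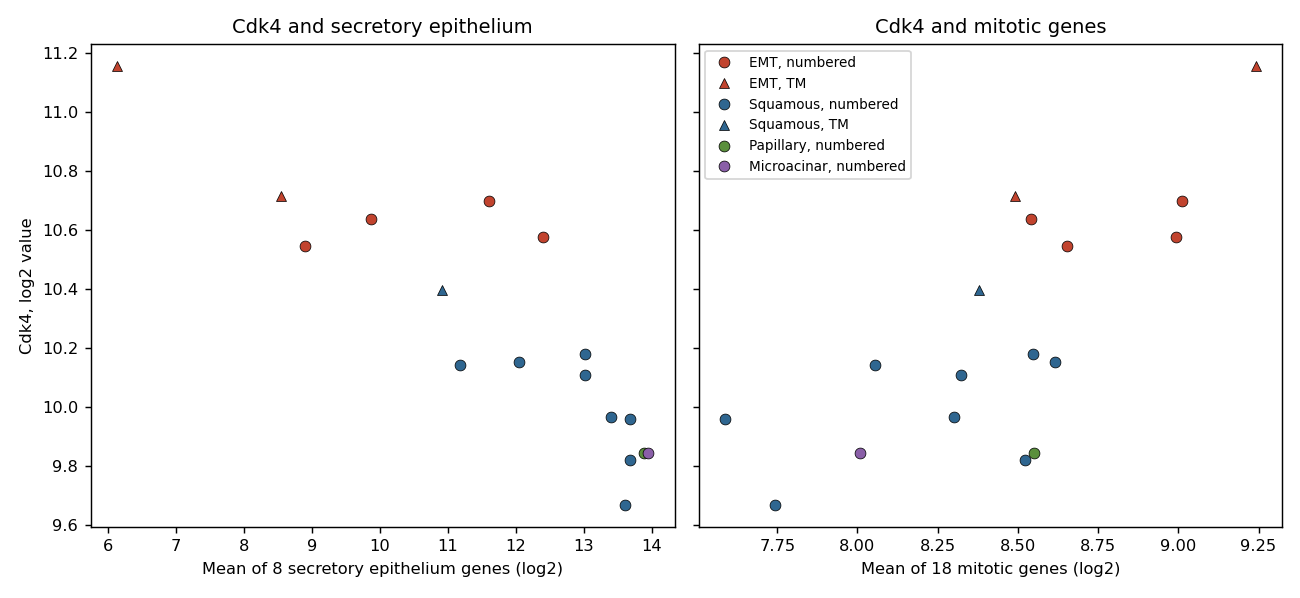
Cdk4 log2 value (y axis) in each of the 17 tumours against the mean log2 value of 8 secretory epithelium genes (left) and of 18 mitotic genes (right), coloured by histology, with triangles for TM arrays. Cdk4 is lower where the secretory mean is higher, among the 9 Squamous tumours as well as over all tumours.

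Ccnd1 followed the mean of the list of pocket proteins and E2F factors. Its r with the mean of the 10 measured genes of that list was 0.788 over 17 tumours (permutation p = 0.00037, adjusted 0.0148; rho 0.836) and 0.926 on the numbered arrays (adjusted p = 0.0010). Within EMT tumours it was 0.698. Within Squamous tumours it was 0.829, and 0.387 without Squamous 2 and Squamous 6.

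Cdkn1a followed the other p53 pathway genes. Its r with the mean of the 18 measured genes was 0.789 over 17 tumours (permutation p = 0.00016, adjusted 0.0107; rho 0.819) and 0.855 on the numbered arrays (adjusted p = 0.00533). In EMT tumours r was 0.833. In Squamous tumours it was 0.912, and 0.939 without Squamous 9 and Squamous 2. On the numbered arrays the p53 pathway mean also went with Cdkn2b (r = 0.902, adjusted p = 0.0010) and Cdkn2a (r = 0.864, adjusted p = 0.0060). Over all 17 tumours neither passed, with r = 0.612 for Cdkn2b (adjusted p = 0.0747) and 0.184 for Cdkn2a (adjusted p = 0.740).

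Ccnd3 was higher where keratinocyte genes were lower. Its r with their mean was -0.838 over 17 tumours (permutation p = 1.0e-05, the smallest that 100000 resamples can give, adjusted 0.00200; rho -0.765) and -0.748 on the numbered arrays (adjusted p = 0.0380). The keratinocyte mean set EMT 4 to EMT 6 apart, at 5.48 to 6.40. Within EMT tumours r was -0.897 and rho -0.943, and r was -0.856 without EMT 2 and EMT 6. Within Squamous tumours r was -0.720 but rho -0.467, and r was -0.567 without Squamous 8 and Squamous 9.

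The other genes of the pathway were counted from lists, of which no gene passed the adjusted threshold. At an unadjusted p under 0.05 (limma) the shares over all genes were 8.08% higher and 6.27% lower. Of 9 genes for the cyclin E and A kinases, their activators and the CDK4 chaperone Cdc37, 2 had an unadjusted p under 0.05, both higher: Ccna2, the S phase cyclin (0.47, SE 0.19, limma adjusted p = 0.302), and Cdk2 (0.26, SE 0.11, adjusted p = 0.322). Of the remaining inhibitors, Cdkn2d had a difference of 0.43 (SE 0.16, adjusted p = 0.268) and Cdkn1c one of -0.68 (SE 0.55, adjusted p = 0.589). Among 10 measured pocket protein and E2F genes 3 were higher and 1 lower at that unadjusted level. The lower one was Rb1, the retinoblastoma gene and the chief substrate of CDK4, at 9.26 ± 0.33 in EMT tumours and 9.88 ± 0.36 in Squamous tumours, a difference of -0.56 (SE 0.18, adjusted p = 0.225). E2f4 had 0.24 (SE 0.082, adjusted p = 0.238).

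Genes that act on the stability or transcription of the members gave 3 higher and 1 lower of 18. The shares over all genes were again 8.08% and 6.27%, for this list and the p53 list below. Usp2, a deubiquitinase known to stabilise cyclin D1, was 7.37 ± 0.24 in EMT tumours and 8.04 ± 0.42 in Squamous tumours without overlap (-0.66, SE 0.20, limma adjusted p = 0.211). Over all genes 0.0968% had EMT values below Squamous values without overlap. Skp2, which marks p27 for degradation, had 0.65 (SE 0.24, adjusted p = 0.259). The p53 pathway list gave 2 higher and 2 lower of 18, with Trp53inp1 at -0.66 (SE 0.25, adjusted p = 0.274) and Mdm2 at 0.62 (SE 0.26, adjusted p = 0.312).

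In the lists of S phase and mitotic genes every difference was positive. Whether the kinases have a part in this was not tested. All 18 measured S phase genes had a difference above 0, with a median of 0.33, and 4 reached an unadjusted p under 0.05, among them Tk1 (0.58, SE 0.21, limma adjusted p = 0.252) and Rrm1 (0.42, SE 0.16, adjusted p = 0.267). All 18 mitotic genes were above 0 too, with a median of 0.59, and 12 reached that unadjusted level, all higher. Over all genes 51.8% had a positive difference, and 8.08% reached that level in the higher direction. Cdk1, the mitotic kinase, had 0.95 (SE 0.19, adjusted p = 0.123) and Aurka 0.77 (SE 0.17, adjusted p = 0.134), and neither overlapped between the groups. EMT values lay above Squamous values without overlap for 0.153% of all genes. On the numbered arrays alone the list medians were 0.40 for S phase genes and 0.61 for mitotic genes.

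**Figure D5:**
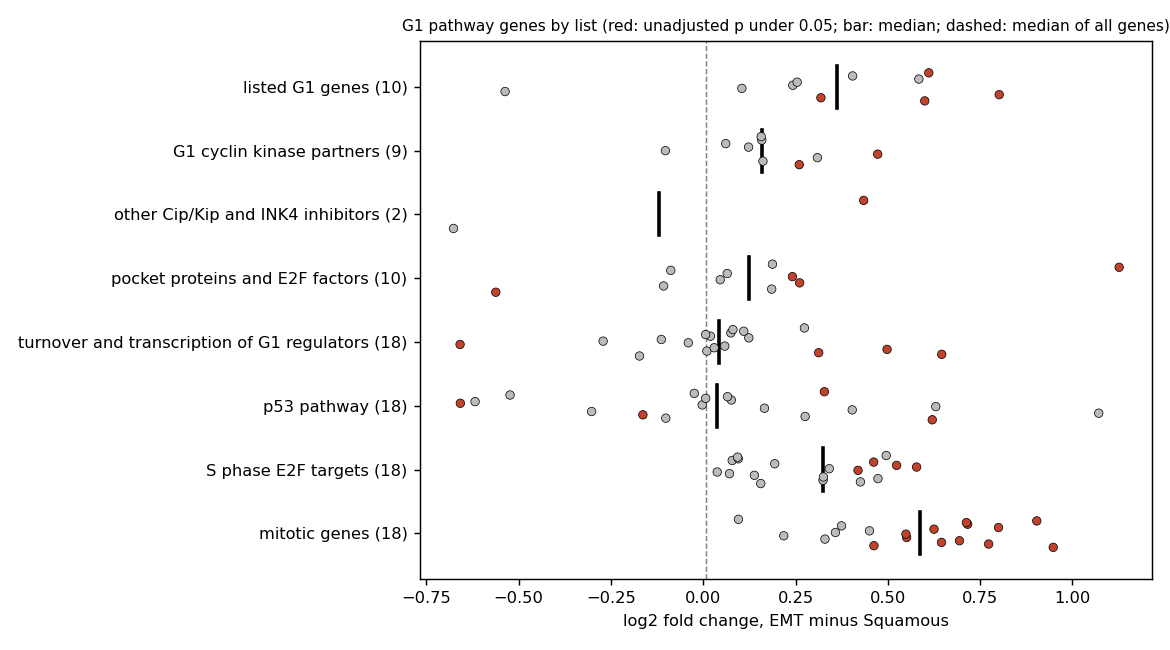
EMT minus Squamous difference on the log2 scale (x axis) of every measured gene in each list (rows, number of genes in brackets), with red points for an unadjusted limma p under 0.05, a bar at each list's median and a dashed line at the median of all genes. All 18 S phase and all 18 mitotic genes lie above 0, and every other list holds genes on both sides of 0.

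The genes most like each member were taken as the 3 with the highest r over the 14 numbered arrays among 6196 genes above the median level, as a description without a test. For Cdk4 they were Cand1 (r = 0.904), Morf4l2 (0.899) and Reps1 (0.898), and over all 17 tumours Morf4l2 had r = 0.923. Cdk6 was most like Egln1 (0.865), Adat2 and Asnsd1, and Ccnd1 most like Cep55 (0.882), Phtf1 and Anln. Ccnd2 was nearest to Alcam (0.875), Vps16 and Sppl3, and Ccnd3 to Zfp106 (0.858), Npdc1 and Atp5j2. Cdkn1a was nearest to Acot7 (0.926), Dgka and Col4a1, and Cdkn1b to Xist (0.912), Smc4 and Syf2. Of the INK4 genes, Cdkn2a was nearest to Mtap (0.930), Pxn and Ywhag, Cdkn2b to Plec (0.957), Oaf and Cnn2, and Cdkn2c to Nudt4 (0.849), Lpcat1 and Necap2. Over all 17 tumours r was higher only for Morf4l2 with Cdk4 and for Nudt4 (0.892) and Necap2 (0.815) with Cdkn2c. It fell to 0.109 for Zfp106 with Ccnd3, and to 0.389 for Egln1 and 0.156 for Asnsd1 with Cdk6. For Syf2 with Cdkn1b it fell to 0.387, and for Plec, Oaf and Cnn2 with Cdkn2b to 0.504, 0.423 and 0.418. These likenesses describe the numbered arrays and need not hold over all tumours.

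Genes beside the members on the chromosome (GRCm38.p6 order, up to 3 measured genes on each side) gave 55 relations, of which 7 passed over the 17 tumours and 1 of those also on the numbered arrays. That one was Cdkn2a with Mtap, a methionine salvage enzyme at chr4:89137370-89181090, with r = 0.685 (permutation p = 0.00377, adjusted 0.0411; rho 0.686) and 0.930 on the numbered arrays (adjusted p = 0.00165). Mtap values were 9.35, 10.72, 8.99, 11.01, 10.26 and 10.50 in EMT 1 to EMT 6, against 9.02 to 9.77 in Squamous tumours, and its difference was 0.70 (SE 0.28, limma adjusted p = 0.295). EMT 2, EMT 4 and EMT 5 were above every Squamous tumour and EMT 3 below them all for Mtap, as for Cdkn2a. The Cdkn2a value of EMT 3 was dim, as given above. EMT 6 was also high for Mtap, but not for Cdkn2a. Within the EMT tumours the r of Mtap with Cdkn2a was 0.589 but -0.223 without EMT 3 and EMT 1. Within the Squamous tumours it was 0.710, and 0.537 without Squamous 2 and Squamous 6. The array values do not measure copy number.

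Tspan31, whose annotation touches that of Cdk4 at its 3′ end, had a difference of 0.41 (SE 0.14, limma adjusted p = 0.238). Its r with Cdk4 was 0.648 over 17 tumours (permutation p = 0.0051, adjusted 0.0411; rho 0.463) and 0.448 on the numbered arrays (adjusted p = 0.303). Without EMT 6 and EMT 5 that r was 0.440 over the remaining tumours. Within the histologies it was 0.306 in EMT tumours and 0.0584 in Squamous tumours. The 5 other measured neighbours of Cdk4 had differences of 0.16 (Mettl1), 0.05 (Cyp27b1), -0.08 (Marchf9), -0.12 (Agap2) and 0.15 (Os9). On the numbered arrays Agap2, a dim gene, had r = -0.738 with Cdk4 (permutation adjusted p = 0.0222), but over 17 tumours r was 0.199. All 5 measured neighbours of Ccnd1 overlapped between the groups, with differences from -0.11 for Tpcn2 to 0.46 for Mrgprf. The neighbour relation with the smallest p over 17 tumours was that of Ccnd3 with AI661453. Its r was -0.822 (permutation p = 4.0e-05, adjusted 0.00220; rho -0.770), and -0.675 without EMT 6 and EMT 5. On the numbered arrays it did not pass, with r = -0.649 (adjusted p = 0.0873).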

How the data were processed

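The authors deposited 1 table, with a log2 value for each probe set and tumour. Its normalization is not given in the sources used here, and the range of the values set the log2 scale. Per the labels' protocols, biotinylated cRNA was made from RNeasy Midi total RNA. Of 22690 probe sets, 64 were controls, 20380 had one gene symbol in the supplied probe table, 691 several and 1555 none. Array medians were 7.23 to 7.40, so no further normalization was applied, and the number of arrays limits the precision.

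The fit of 6 EMT and 9 Squamous tumours used limma 3.58.1 (R 4.3.3) over 12393 genes, with title format as a term and Benjamini-Hochberg adjustment over all genes. Relations used Pearson's r and Spearman's rho with 100000 two-sided permutations, adjusted within each family. The permutations took no account of histology or title format. Those within histologies were added after seeing the data and are given without a test. No 2 arrays were duplicates: the highest correlation between arrays was 0.990. Scripts were tested on simulated data. Other steps ran in Python 3.11.15 with matplotlib 3.10.9, numpy 2.4.6, scipy 1.17.1 and pandas 2.3.3.

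The members, gene lists and tests were chosen with earlier results of these data known. The genes named are the members, the 2 genes of each pathway list with the smallest p, the 3 most alike genes per member, Myc and genome neighbours. Cell type markers are named by list only, except Wap, chosen after its values were seen.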

Additional observations from a re-analysis of the deposited data

Results flagged for a closer look

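Dixon's test for a single tumour far from the rest of its group was applied to the 10 genes in both histologies, 20 groups in all, and marked 4 tumours. Chance marks about 1 in 20 such groups. Cdk4 in EMT 6 was 11.16, the highest of its group, with the nearest EMT tumour at 10.71. Cdk6 in EMT 2 was 5.93, the highest, with the nearest at 5.59, and Cdk6 in Squamous 9 was 4.80, the lowest, with the nearest at 5.23. Ccnd1 in Squamous 2 was 9.61, the lowest, with the nearest at 10.67. EMT 6 and Squamous 9 are TM arrays.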

How the results depend on the processing

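Over the alternatives to the comparison of EMT and Squamous tumours, 268 values of the members' differences were computed. Of these, 265 kept their sign and their side of the threshold, and 3 reversed: Ccnd3 (0.10) was -0.0860 with the numbered arrays only and, equally, without Squamous 9 (which leaves no Squamous tumour on a TM array), and Cdkn2b was -0.0070 with array weights. Leaving out 1 tumour gave Ccnd3 differences of -0.0860 to 0.204. The count of genes called was 0 in each alternative that kept all tumours, and 0 to 14 when 1 tumour was left out, with 14 only without EMT 1. The count of genes without overlap was 31, became 120 with the numbered arrays only (fewer tumours), and 33 to 88 when 1 tumour was left out. Relations between members numbered 1 over 17 tumours, 2 with the numbered arrays only and 0 after quantile normalization. The cause of the last change was not tested. No paired analysis was possible because no EMT tumour shares a number in its title with a Squamous tumour. Cdk6 and other dim probe sets lie near the lower quartile of the arrays, where a difference can be understated. The 6 and 9 tumours limit every test.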

Other observations

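On the 14 numbered arrays, 3 of the inhibitors were higher where secretory epithelium means were lower: Cdkn1a (r = -0.775, adjusted p = 0.0117), Cdkn2a (-0.796, adjusted p = 0.0276) and Cdkn2b (-0.833, adjusted p = 0.0096), each by permutation and adjusted over 200 relations. Without EMT 2 and EMT 4 these r values were -0.790, -0.380 and -0.744. Over all 17 tumours none of the 3 passed, with r of -0.603 (adjusted p = 0.0747), -0.501 (adjusted p = 0.191) and -0.0937 (adjusted p = 0.840) by permutation. EMT 6, a TM array, had the lowest secretory mean (6.14) and also the lowest Cdkn2b value (6.43). Cdkn2b also went with the mean of 10 fibroblast genes on the numbered arrays (r = 0.814, permutation p = 0.00029, adjusted p = 0.00967; rho 0.873), but over all 17 tumours r was 0.513 (adjusted p = 0.191). The fibroblast mean was 11.57 ± 0.92 in EMT tumours (SD, n = 6) and 10.90 ± 1.12 in Squamous tumours (SD, n = 9).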
